A study of Mus musculus with 15 samples.

Results

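The neurotrophin genes examined here were the ligands Bdnf and Ntf3, the receptors Ntrk2, Ntrk3 and Ngfr, and Sort1, which encodes sortilin. They were chosen by gene symbol, because the MAGE protein encoded by Maged1 is known to bind the receptor encoded by Ngfr, and they are 6 of the 25080 genes listed in each table. RNA was sequenced from unsorted, microdissected thalamus of male mice aged 2 to 4 months, after ribosomal RNA depletion. Maged1 cKO mice carried a floxed Maged1 and Cre driven by the vGluT2 promoter, so deletion is limited to cells that have used this promoter, and the glia and vessels of the dissected tissue should keep the gene. The controls, titled Maged1 WT, were floxed littermates by the study's methods, whereas the extraction notes also name Cre carriers with wild-type Maged1, so the sources do not settle whether they carry Cre. All mice received saline for 3 days and then either cocaine (20 mg/kg, intraperitoneal) or saline for 5 days. Groups followed the titles, which gave 4 libraries each for saline in control and in cKO mice and for cocaine in control mice, and 2 for cocaine in cKO mice. No sequencing batch was given.

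Neurotrophins are secreted growth factors that support the survival of neurons and adjust the strength of synapses. Each is made as a precursor and cut to a mature form. Mature BDNF acts mainly on the tyrosine kinase receptor TrkB (Ntrk2) and mature NT-3 mainly on TrkC (Ntrk3), whereas the precursors bind p75NTR (Ngfr) together with a sortilin family member. Sortilin also sorts proteins, among them pro-BDNF, inside the cell. In the adult forebrain, p75NTR is best known from cholinergic neurons of the basal forebrain.

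The level of a gene is given as scaled TPM, that is the deposited TPM (a length-adjusted share of all transcripts) divided by a library factor that removes differences in composition (trimmed mean of M-values, TMM). This step mattered because the factors were 0.807 to 0.947 in the 6 cocaine libraries and 1.07 to 1.21 in the 8 saline libraries. Without it, the median of all tested genes was lower by 0.34 on the log2 scale in the labelled control cocaine libraries than in control saline (median log2 fold change -0.34). Differences are log2 fold changes of scaled TPM plus 0.5, tested with limma over all 14 libraries and adjusted over the 13471 genes that reached 1 TPM in at least 3 libraries.

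Maged1 was examined first as a check of the labels. It had 153, 166, 150 and 151 scaled TPM in control saline replicates 1 to 4, and 78.0, 76.6, 68.6 and 64.5 in cKO saline, as the labels say. In the cocaine libraries the order was opposite to the labels, with 58.5, 87.9, 77.3 and 71.3 scaled TPM in the labelled control cocaine libraries and 153 and 174 in those labelled cKO cocaine. The labelled cKO cocaine libraries were higher by 1.15 (SE 0.13, limma adjusted p = 0.00431), although this did not pass without labelled cKO cocaine replicate 2 (1.06, adjusted p = 0.0779) or with only the compared groups (adjusted p = 0.170). For that reason they are called labelled control cocaine and labelled cKO cocaine below, and any direction drawn from them rests on labels that this gene goes against. In addition, the genotype tag of 4 of the 8 saline libraries names the other genotype than the title.

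Levels of genes that mark other regions varied between libraries. The summed level of 8 hypothalamus genes was 130 to 456 scaled TPM in control saline, 3.12 to 127 in the labelled control cocaine libraries, 8.61 to 145 in cKO saline, and 31.9 and 70.9 in those labelled cKO cocaine. For 8 genes of ependyma and choroid plexus it was 36.5 to 1467 (median 56.9) in control saline, 7.01 to 41.2 in the labelled control cocaine libraries, 5.69 to 56.8 in cKO saline, and 28.7 and 32.7 in those labelled cKO cocaine. For 6 habenula genes it was 51.4 to 76.1 in control saline and 8.42 to 172 in the labelled control cocaine libraries. In cKO saline that sum was 9.43 to 50.2, and 28.9 and 60.6 in those labelled cKO cocaine. The part of these cells in the results below was not tested. Genes that mark thalamic glutamatergic neurons (7 genes, among them Slc17a6 and Tcf7l2) were detected in every group. Of the 7 cortex and hippocampus neuron genes, Emx1 was listed at 0 in every cocaine library, but their summed level was not lower under the control label. That sum was 50.6 to 66.4 scaled TPM in control saline and 69.5 to 97.6 in the labelled control cocaine libraries. It was 69.0 to 111 in cKO saline, and 48.5 and 68.6 in the labelled cKO cocaine libraries. In bulk tissue, fewer cells of a type and less RNA per cell cannot be told apart.

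The 6 genes differed widely in level, and each Trk receptor stood above its main ligand. Ntrk2 was the most abundant, at 70.1 to 81.7 scaled TPM over the 14 libraries (median 75.6), higher than 96.2% of the tested genes. Sort1 followed at 33.2 to 47.7 (median 41.1), then Ntrk3 at 9.38 to 16.8 (median 12.9) and Bdnf at 2.36 to 4.56 (median 3.00). These 4 ranges did not overlap, so this order held in all 14 libraries. Ngfr lay at 0.227 to 0.809 (median 0.531) and Ntf3 at 0.118 to 1.04 (median 0.258). These last 2 ranges overlapped, and Ngfr was above Ntf3 in 10 of 14 libraries. Ngfr did not reach 1 TPM in any library and Ntf3 did so in 1, so 4 of the 6 genes entered the test across genes and the other 2 were tested alone.

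**Figure D1:**
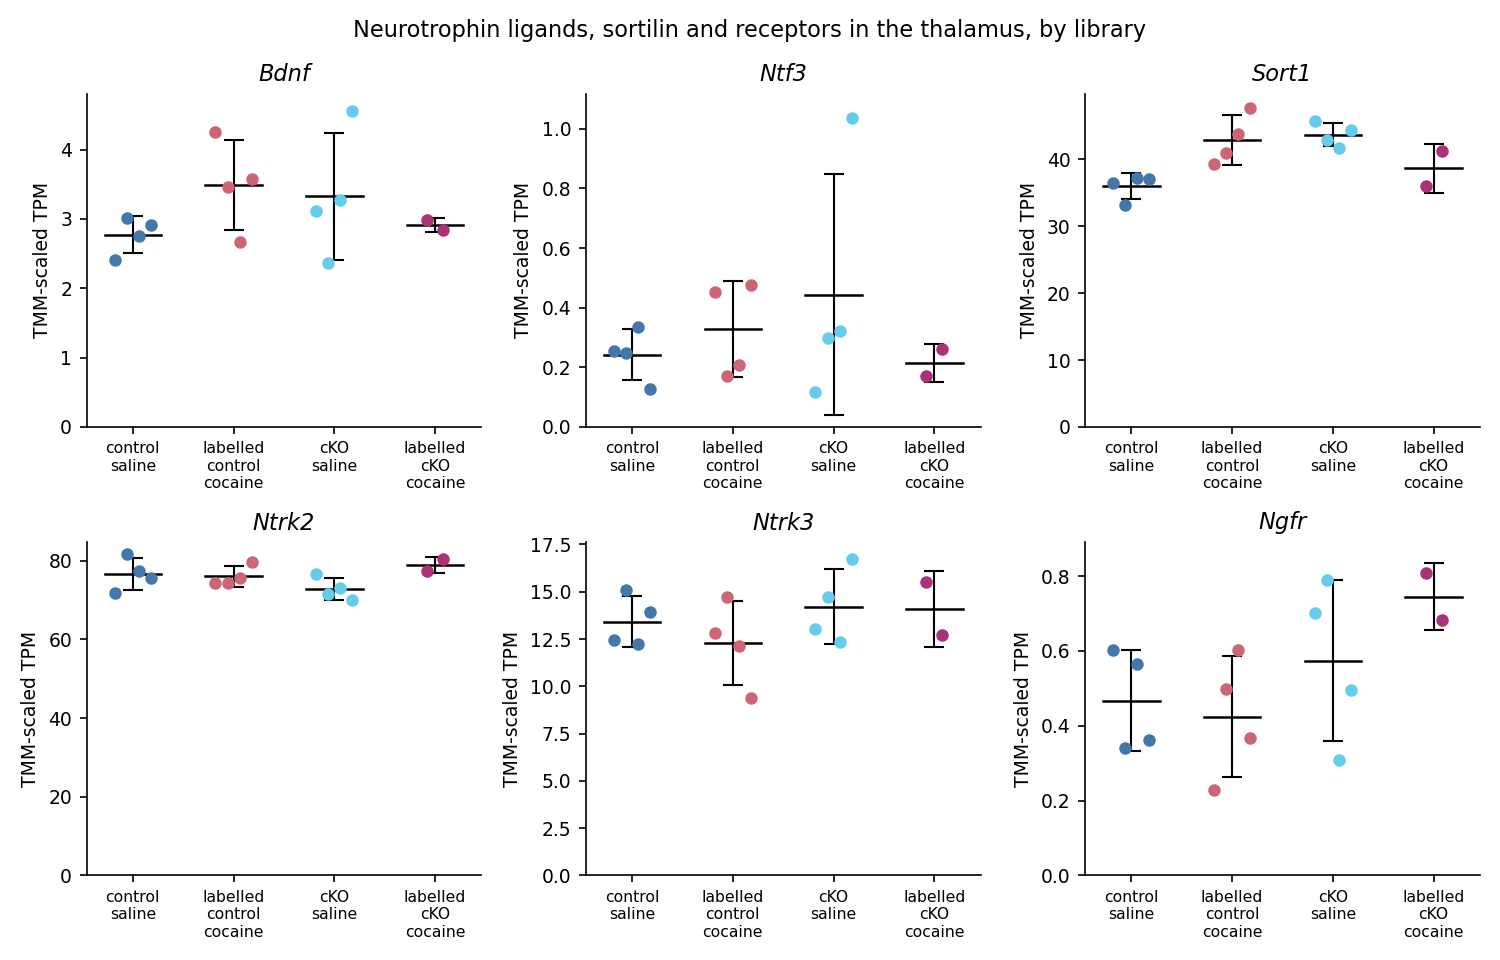
Scaled TPM (vertical axes, each starting at 0) of Bdnf, Ntf3, Sort1, Ntrk2, Ntrk3 and Ngfr in the 14 libraries, grouped by label. Points are libraries, horizontal lines are group means and whiskers are 1 SD (4 libraries a group, 2 for labelled cKO cocaine). In the Sort1 panel every control saline library, at 33.2 to 37.3, lies below every labelled control cocaine library (39.3 to 47.7) and every cKO saline library (41.8 to 45.8).

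Bdnf encodes brain-derived neurotrophic factor, and the gene lies on the plus strand of mouse chromosome 2 from 109674700 to 109727007 (GRCm38). Gene-level TPM adds up its alternative first exons, since the annotation lists 11 protein-coding transcripts, and 7 RefSeq start windows of 300 bases (250 before and 50 after the start) were held for it. The stretch before one start is shown because it is the only one of the 11 windows held for Bdnf, Ntf3, Ngfr and Ntrk2 that contains a cAMP response element, the site bound by CREB, as either TGACGTCA or TCACGTCA on either strand. It comes from RefSeq for GRCm38.p6, chr2:109692316-109692435, plus strand, 5′ to 3′, with the element in capitals; the element's first base lies 38 bases before the start:
Bdnf start, 120 bases upstream: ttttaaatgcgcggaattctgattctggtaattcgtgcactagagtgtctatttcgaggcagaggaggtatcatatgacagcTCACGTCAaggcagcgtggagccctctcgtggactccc
Either form is found in 2.21% of the 32851 RefSeq windows of this length, and the match is a description of these letters. The deposited values do not separate transcripts from this start and from the others.

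Bdnf itself did not pass the test in any comparison. Its level was 2.41, 3.02, 2.75 and 2.92 scaled TPM in control saline and 4.25, 3.46, 2.66 and 3.58 in the labelled control cocaine libraries. Of these, 3 of the 4 labelled control cocaine libraries were above every control saline library, and replicate 3 was within their range. The log2 fold change was 0.28 (SE 0.15, 95% confidence interval -0.06 to 0.61, limma adjusted p = 0.213). In cKO saline Bdnf was at 3.11, 2.36, 3.27 and 4.56, and in the labelled cKO cocaine libraries at 2.98 and 2.85. Both of the latter fell inside the range of cKO saline, with a log2 fold change of -0.13 (SE 0.19, interval -0.54 to 0.27, adjusted p = 0.661). Between the saline groups it was 0.20 (interval -0.13 to 0.53, adjusted p = 0.549). These intervals leave room for differences of up to about 1.5-fold (upper bound 1.52-fold for labelled control cocaine against control saline).

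Ntf3 encodes neurotrophin-3 and lies on the minus strand of chromosome 6, from 126101412 to 126166910. It was at 0.255, 0.247, 0.336 and 0.128 scaled TPM in control saline and at 0.454, 0.171, 0.208 and 0.478 in the labelled control cocaine libraries. In cKO saline the values were 0.118, 0.299, 0.323 and 1.04, and in the labelled cKO cocaine libraries 0.170 and 0.260. Apart from cKO saline replicate 4, every library was below 0.48, and all groups overlapped. None of 5 comparisons passed the two-sided exact permutation test, with p from 0.371 to 0.859. The labelled cKO cocaine libraries against cKO saline or labelled control cocaine set 2 libraries against 4. The smallest p possible there is 0.133, so neither of these could pass. Without replicate 4, cKO saline and control saline differed by 0.01 on the log2 scale, against 0.27 with it.

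Sort1 was the 1 tested member that passed in any comparison. The gene lies on the plus strand of chromosome 3, from 108284082 to 108361511. It had 36.5, 33.2, 37.3 and 37.1 scaled TPM in control saline (mean 36.0 ± 1.90, SD, n = 4) and 39.3, 40.9, 43.7 and 47.7 in the labelled control cocaine libraries (42.9 ± 3.68, SD, n = 4). The groups did not overlap. Sort1 was higher by 0.25 on the log2 scale (1.19-fold, SE 0.06, 95% interval 0.11 to 0.39, limma adjusted p = 0.0145), and it was the 1 of 4 tested members past the threshold, where 24.3% of all tested genes were. This direction held under every scaling between libraries that was tried, and turned over only with the TPM values as deposited (log2 fold change -0.13, adjusted p = 0.0808), where the median of all genes was itself at -0.34. It no longer passed when genotype was read from the tag (0.12, adjusted p = 0.443) or when only libraries whose title and tag name the same genotype were kept (0.29, adjusted p = 0.0799). The call held in all 14 fits that leave out 1 library.

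In cKO saline Sort1 was at 45.8, 42.9, 41.8 and 44.4 scaled TPM (43.7 ± 1.77, SD, n = 4), again without overlap with control saline. This difference of 0.28 (1.21-fold, SE 0.06, interval 0.14 to 0.41) did not pass (limma adjusted p = 0.0840, unadjusted p = 0.000866), in a comparison where 0.156% of all genes did. With genotype read from the tag it was 0.03 (adjusted p = 1.0). In the labelled cKO cocaine libraries it was at 36.1 and 41.3, both below every cKO saline library. The log2 fold change was -0.18 (SE 0.08, interval -0.35 to -0.01, adjusted p = 0.133), and -0.05 with genotype read from the tag (adjusted p = 0.830). Between the cocaine groups the values overlapped (-0.15, interval -0.32 to 0.02, adjusted p = 0.479). The cocaine difference was thus positive under the control label and negative under the cKO label. The interaction was -0.42 (SE 0.10, interval -0.64 to -0.20) and did not pass (adjusted p = 0.0590). It passed without labelled control cocaine replicate 1 (-0.46, adjusted p = 0.0368), and it was -0.17 with genotype read from the tag (adjusted p = 0.857). Groups with high Maged1 had the lower Sort1 means. Sort1 averaged 36.0 in control saline and 38.7 in labelled cKO cocaine, where mean Maged1 was 155 and 163. In labelled control cocaine and cKO saline, Sort1 averaged 42.9 and 43.7, and Maged1 73.8 and 71.9. The comparison in which Sort1 passed thus also set low Maged1 against high. Cocaine and Maged1 level cannot be told apart in it.

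**Figure D2:**
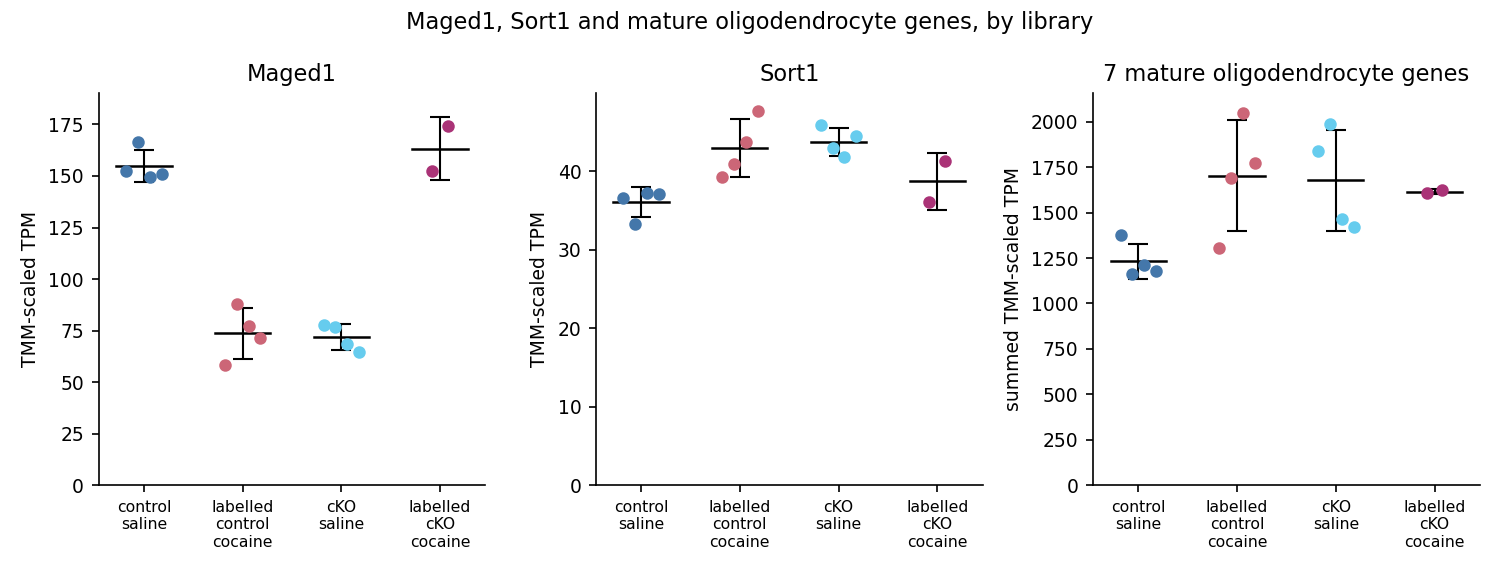
Maged1 and Sort1 in scaled TPM, and the summed scaled TPM of 7 mature oligodendrocyte genes, in the 14 libraries (axes from 0). Points are libraries, lines are means and whiskers 1 SD. Maged1 is at 150 to 174 in control saline and labelled cKO cocaine and at 58.5 to 87.9 in the other groups, and the oligodendrocyte sum has its lowest median, 1194, in control saline, as Sort1 has.

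Genes of mature oligodendrocytes, the myelin-forming cells, had group means that mostly differed in the same directions as those of Sort1. All 7 genes of the list (Mbp, Mog, Mag, Mobp, Cnp, Cldn11 and Ermn) had higher means in the labelled control cocaine libraries than in control saline (median log2 fold change 0.30), and 2 passed the test: Mobp at 0.61 (adjusted p = 0.0102) and Mbp at 0.46 (adjusted p = 0.0241). All 7 were also higher on average in cKO saline than in control saline (median 0.44, none past the threshold). In the labelled cKO cocaine libraries 5 of 7 were lower than in cKO saline (median -0.15, none past the threshold). The exceptions there were Mbp and Mobp, at 0.01 and 0.02. Their summed level was 1161 to 1375 scaled TPM in control saline, 1307 to 2046 in the labelled control cocaine libraries, 1422 to 1984 in cKO saline, and 1606 and 1624 in those labelled cKO cocaine. No gene of the list was listed at 0. Thalamic glutamatergic neuron genes also had a higher summed level in the labelled control cocaine libraries (457 to 633 scaled TPM) than in control saline (340 to 475), with 5 of 7 genes higher on average, 2 of them past the test, and a median log2 fold change of 0.24. That sum was 414 to 540 in cKO saline, and 429 and 528 in the labelled cKO cocaine libraries. The part of either cell type in the Sort1 difference was not tested. The 3 tested genes whose pattern over the 14 libraries was most like that of Sort1 were Rgs7bp, Ppm1e and Rasgrp1 (Pearson r = 0.948, 0.942 and 0.942 on the log2 scale), and r was still 0.841, 0.893 and 0.880 for deviations from group means. These correlations share libraries and scaling and are given as a description.

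Ntrk2 encodes TrkB, the receptor of BDNF, and spans 58806569 to 59133970 on the plus strand of chromosome 13. The annotation lists 10 transcripts for Ntrk2, 7 of them protein-coding, and gene-level TPM does not separate them. Ntrk2 was the steadiest member, with 71.8, 81.7, 77.3 and 75.6 scaled TPM in control saline and 74.2, 74.3, 75.7 and 79.7 in the labelled control cocaine libraries. In cKO saline it was at 76.6, 71.4, 72.9 and 70.1, and in the labelled cKO cocaine libraries at 77.5 and 80.4. The latter were both above all cKO saline libraries, by 0.12 on the log2 scale (1.09-fold, SE 0.05, interval 0.00 to 0.23), which did not pass the threshold that 19.9% of all genes passed (limma adjusted p = 0.144). For labelled control cocaine against control saline the fold was 0.993, with an interval from 0.929 to 1.06, so a change of 10% in either direction lies outside it. Its coefficient of variation over the 14 libraries was 4.60%, lower than that of most genes of like level (median 8.60% over the 1000 tested genes nearest in mean, 7.60% of which were lower). Itih3, Sparc and Kidins220 followed it most closely (r = 0.880, 0.864 and 0.853). Kidins220 encodes a scaffold protein of Trk receptors and is one of the system genes below.

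Ntrk3 encodes TrkC, the receptor of neurotrophin-3, on the minus strand of chromosome 7 from 78175959 to 78738012. Its 20 annotated transcripts, 6 of them protein-coding, are likewise not separated. The Ntrk3 values were 12.5, 15.1, 12.2 and 13.9 scaled TPM in control saline, 12.8, 14.7, 12.1 and 9.38 in the labelled control cocaine libraries, 13, 14.7, 12.3 and 16.8 in cKO saline, and 15.5 and 12.7 in those labelled cKO cocaine. All groups overlapped, and log2 fold changes ran from -0.14 for labelled control cocaine against control saline (interval -0.42 to 0.14, adjusted p = 0.471) to 0.20 for labelled cKO cocaine against labelled control cocaine (interval -0.14 to 0.55, adjusted p = 0.653). Unlike Ntrk2 it varied more than genes of like level, with a coefficient of variation of 13.8% against a median of 8.58%. Its spread was within groups as well as between them, since the highest library (cKO saline replicate 4) and the lowest (labelled control cocaine replicate 4) each had a group mate near 12. The genes most like it, Htr4, Gsap and Klhl33 (r = 0.888, 0.848 and 0.846), kept r of 0.912, 0.845 and 0.823 for deviations from group means.

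Ngfr, which encodes p75NTR and is the gene through which the family was chosen, was barely detected. It lies on the minus strand of chromosome 11, from 95568818 to 95587735. The values were 0.602, 0.340, 0.564 and 0.363 scaled TPM in control saline, 0.227, 0.499, 0.602 and 0.368 in the labelled control cocaine libraries, and 0.702, 0.790, 0.309 and 0.495 in cKO saline. The labelled cKO cocaine libraries had 0.809 and 0.682, above all those labelled control cocaine, and this was the only one of 5 comparisons without overlap. The difference was 0.45 on the log2 scale, with a two-sided exact permutation p of 0.133, the smallest that 2 libraries against 4 allow. The other 4 gave p from 0.457 to 0.960, and after Benjamini-Hochberg adjustment over the 10 exact tests of Ngfr and Ntf3 none was below 0.889. The 5 marker genes listed for cholinergic neurons of the basal forebrain (Chat, Slc18a3, Slc5a7, Lhx8 and Gbx1) had a low summed level. It was 4.89 to 7.54 scaled TPM in control saline and 0.476 to 11.7 in the labelled control cocaine libraries. In cKO saline it was 0.422 to 1.77, and 2.53 and 6.75 in the labelled cKO cocaine libraries. The 3 tested genes of this list and the 6 habenula genes were all lower in cKO saline than in control saline. Median log2 fold changes were -1.31 and -1.25, with none past the threshold. The sum therefore does not show which region this RNA came from. The part of cholinergic neurons in the Ngfr values was not tested.

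**Figure D3:**
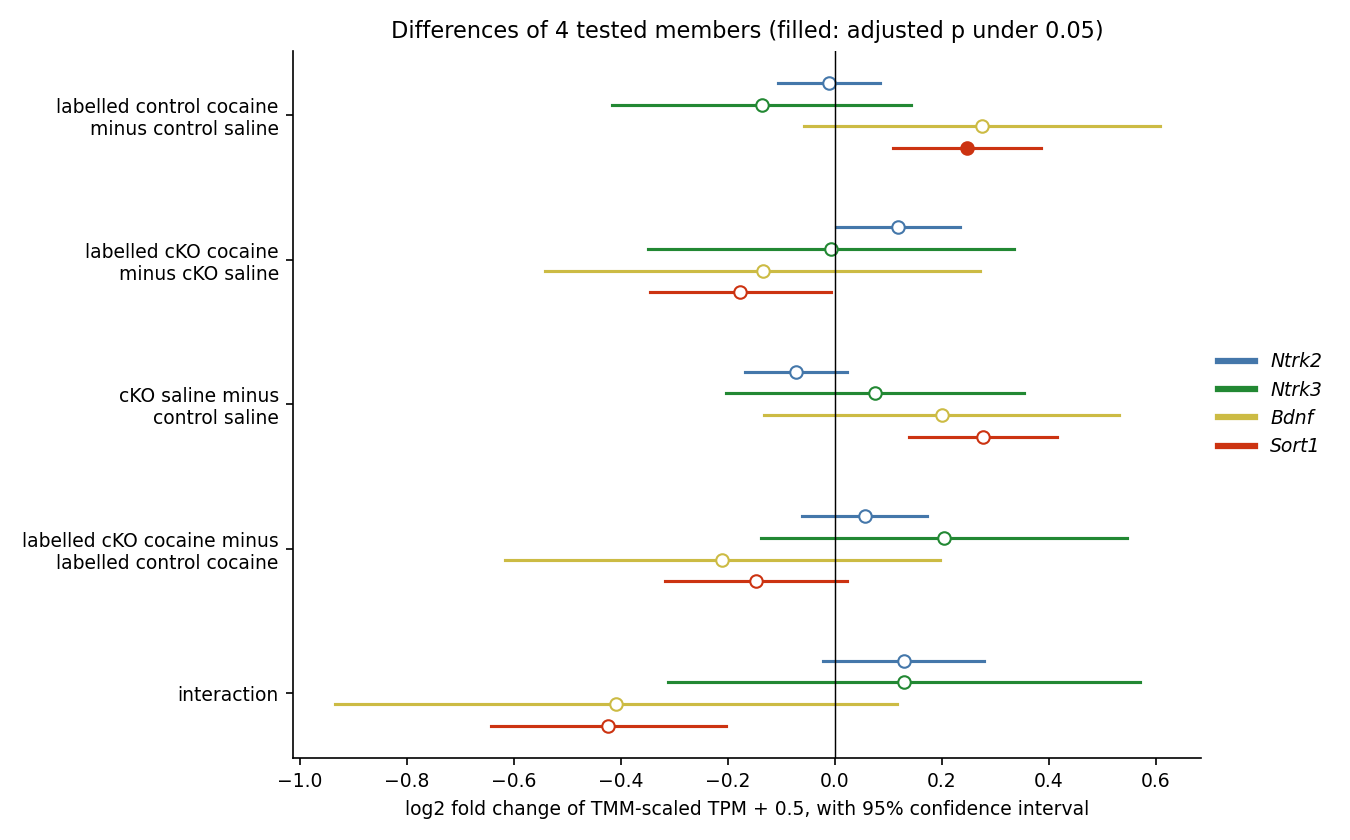
Log2 fold changes of scaled TPM plus 0.5 (horizontal axis) of the 4 tested members in 5 comparisons, with 95% confidence intervals as lines. Filled points passed an adjusted p of 0.05. Sort1 at 0.25, for labelled control cocaine against control saline, is the 1 filled point.

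Counted over comparisons, 1 of 4 tested members passed for labelled control cocaine against control saline, and 0 of 4 in each of the others by limma. At an unadjusted p under 0.05 the count was 2 for labelled cKO cocaine against cKO saline (Ntrk2 and Sort1), 1 for cKO saline against control saline (Sort1), 0 for labelled cKO cocaine against labelled control cocaine, 1 for the interaction (Sort1) and 0 for cocaine against saline over both genotypes. Of all tested genes 33.7%, 16.7%, 12.1%, 18.5% and 42.7% had an unadjusted p under 0.05 in these 5 comparisons, and 19.9%, 0.156%, 0.0594%, 1.35% and 32.7% passed the adjusted threshold. Over both genotypes the 4 log2 fold changes were 0.03 for Sort1, 0.05 for Ntrk2, 0.07 for Bdnf and -0.07 for Ntrk3.

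The wider neurotrophin system was described with 68 further genes, of which 65 were tested. For labelled control cocaine against control saline 15 of 65 passed (23.1%, against 24.3% of all genes), and their directions were uneven, with 13 higher (20%, against 15% of all genes) and 2 lower (3.08%, against 9.35%). The median log2 fold change of the list was 0.06, against 0.01 for all genes. For labelled cKO cocaine against cKO saline 11 of 65 passed (16.9%), 6 higher (9.23%, against 9.19% of all genes) and 5 lower (7.69%, against 10.7%). Without labelled cKO cocaine replicate 2 this count was 4, and with the replicate block it was 7. Over both genotypes, a comparison that does not depend on the genotype names of the cocaine groups, 23 of 65 passed (35.4%, against 32.7% of all genes). Of these, 14 were higher (21.5%) and 9 lower (13.85%), where 2347 of the 13471 genes were higher and 2064 lower. In the interaction 0 of 65 passed by limma, and 7 had an unadjusted p under 0.05 (10.8%, against 18.5% of all genes). Shares near those of all genes are no result about the list. Genes said below to have risen or fallen had a limma adjusted p under 0.05. With TPM as deposited, Egr1 was the 1 of the 13 rises under the control label that still passed, and 0 of the 6 under the cKO label did.

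Ntf5, encoding neurotrophin-4, was at 0 in 6 libraries and did not exceed 0.110 scaled TPM in the others.

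Of 6 tested receptors and co-receptors of the list, 2 passed under the control label (33.3%, against 24.3% of all genes) and 0 under the cKO label (against 19.9%). The 2 were Rtn4r and Lingo1, both higher in the labelled control cocaine libraries. Their proteins form a complex with p75NTR that receives myelin inhibitors. Rtn4r rose from 14.8 to 19.5 scaled TPM (log2 fold change 0.39, adjusted p = 0.00659) and Lingo1 from 39.3 to 52.3 (0.41, adjusted p = 0.0107). Neither passed for labelled cKO cocaine against cKO saline (0.26 and 0.18, adjusted p = 0.107 and 0.321). Over both genotypes Rtn4r and Lingo1 passed (0.32 and 0.29, limma adjusted p = 0.00324 and 0.0122). Neither passed in the interaction (adjusted p = 0.651 and 0.480), so a difference between the labels is not shown. Among 9 genes whose proteins bind the inner part of p75NTR, 3 passed under each genotype label (33.3%, against 24.3% and 19.9% of all genes). Bex3 rose under both labels, from 70.8 to 95 (0.43) and from 65.8 to 91.6 (0.47). Arhgdia, which encodes a GDP dissociation inhibitor of small GTPases, also rose under both, by 0.24 and 0.36. With TPM as deposited the Arhgdia values were -0.14 and -0.02. Ndn, encoding necdin, another MAGE family protein, fell by 0.61 in the labelled control cocaine libraries (from 128 to 86.3, adjusted p = 0.0220). It did not pass without labelled control cocaine replicate 3 or 4 or control saline replicate 1 or 2 (-0.58 to -0.47, adjusted p = 0.0518 to 0.0648), with only the compared groups (adjusted p = 0.0577) or with genotype read from the tag (adjusted p = 0.0716).

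Bex1 was the 1 system gene past the threshold between cKO and control saline (1.54% of 65, against 0.156% of all genes). It fell by 0.44 (from 56.4 to 41.5 scaled TPM, SE 0.06, limma adjusted p = 0.0159), without overlap, and rose by 0.29 in the labelled cKO cocaine libraries over cKO saline (adjusted p = 0.0215). That rise did not pass without either of the labelled cKO cocaine libraries (adjusted p = 0.103 and 0.110), with the replicate block (adjusted p = 0.0789) or with genotype read from the tag (0.06, adjusted p = 0.848), and it reversed with TPM as deposited (-0.09). The saline difference did not pass without control saline replicate 2, cKO saline replicate 1 or cKO saline replicate 2 (adjusted p = 0.0816, 0.0780 and 0.0660), nor with genotype read from the tag, where it was 0.01. Between the cocaine groups 0 of 65 passed by limma, and 7 had an unadjusted p under 0.05 (10.8%, against 12.1% of all genes).

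Of 14 kinases and GTPases downstream of Trk receptors, 1 rose and 1 fell under the control label (14.3% past the test, against 24.3% of all genes), and 1 rose and 3 fell under the cKO label (28.6%, against 19.9%). Hras rose under both genotype labels (0.29 and 0.29) and reversed with TPM as deposited (-0.09 and -0.08), and the second value was 0.20 without labelled cKO cocaine replicate 2 (adjusted p = 0.191). Braf fell by 0.27 on the log2 scale under the cKO label (adjusted p = 0.0553 without labelled cKO cocaine replicate 2). Its change of -0.12 under the control label was at the threshold (adjusted p = 0.0494) and did not pass in 10 of the 14 fits that leave out 1 library (adjusted p = 0.0541 to 0.132). Nras and Mapk8 (JNK1) fell by 0.25 and 0.24 in the labelled cKO cocaine libraries against cKO saline. Nras did not pass without labelled cKO cocaine replicate 2 (-0.18, adjusted p = 0.294) or cKO saline replicate 1, 2 or 3 (adjusted p = 0.0625 to 0.0755), and Mapk8 did not without either labelled cKO cocaine library (adjusted p = 0.0695 and 0.132). Neither passed with the replicate block (adjusted p = 0.0844 and 0.0546).

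Of 16 adaptors, 3 rose under the control label (18.8%, against 15% of all genes), and 1 rose and 1 fell under the cKO label (12.5% past the test, against 19.9% of all genes). Sh2b1 was higher by 0.32 in the labelled control cocaine libraries. Under the cKO label it was higher by 0.20, a call lost in 6 of 14 leave-one-out fits and at 0.07 without labelled cKO cocaine replicate 2 (adjusted p = 0.527). Ptpn11 and Rapgef1 were higher by 0.14 in the labelled control cocaine libraries, calls lost in 6 and 9 of 14 leave-one-out fits (adjusted p = 0.0533 to 0.0846 and 0.0534 to 0.115) and with quantile normalization (0.05 and 0.10, adjusted p = 0.357 and 0.157). Crk fell by 0.26 in the labelled cKO cocaine libraries (adjusted p = 0.0630 without replicate 1 of them). Sh2b1, Ptpn11 and Rapgef1 turned negative with TPM as deposited (-0.05, -0.24 and -0.225 for labelled control cocaine against control saline, and -0.17 for Sh2b1 in cKO).

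Of 12 tested transcription factors and target genes of Trk signalling, 5 rose under the control label (41.7%, against 15% of all genes), and 1 rose and 1 fell under the cKO label (16.7%, against 19.9% past the test). Egr1, an immediate early transcription factor, rose from 8.57 to 13.9 scaled TPM in the labelled control cocaine libraries (0.66, adjusted p = 0.00103) and from 8.37 to 13.2 in those labelled cKO cocaine (0.63, adjusted p = 0.00542). Dusp6, Spry2 and Spry4, feedback inhibitors of ERK signalling, rose by 0.45, 0.37 and 0.33 in the labelled control cocaine libraries. Spry2 did not pass with genotype read from the tag (0.27, limma adjusted p = 0.0612). With only libraries of agreeing genotype labels, neither Spry2 nor Spry4 passed (0.39 and 0.35, adjusted p = 0.0641 and 0.105). Over both genotypes Dusp6 and Spry4 passed and Spry2 did not. Vgf, a BDNF target, was higher by 0.32 at the threshold (adjusted p = 0.0480), a call lost in 10 of 14 leave-one-out fits (adjusted p = 0.0520 to 0.127) and with median-of-ratios scaling (0.31, adjusted p = 0.0524). Vgf and Spry4 turned over with TPM as deposited (-0.06 and -0.01). Crem, which encodes activators and repressors acting at cAMP response elements, fell by 0.44 in the labelled cKO cocaine libraries. It did not pass without either of those libraries (adjusted p = 0.120 and 0.118), without cKO saline replicate 3 (adjusted p = 0.0587) or with the replicate block (adjusted p = 0.0611). None of 8 tested genes for processing or release of the ligands passed limma's adjusted threshold in either genotype, with 4 at an unadjusted p under 0.05 under the control label (50%, against 36.9% of all genes) and 1 under the cKO label (12.5%, against 33.7%).

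**Figure D4:**
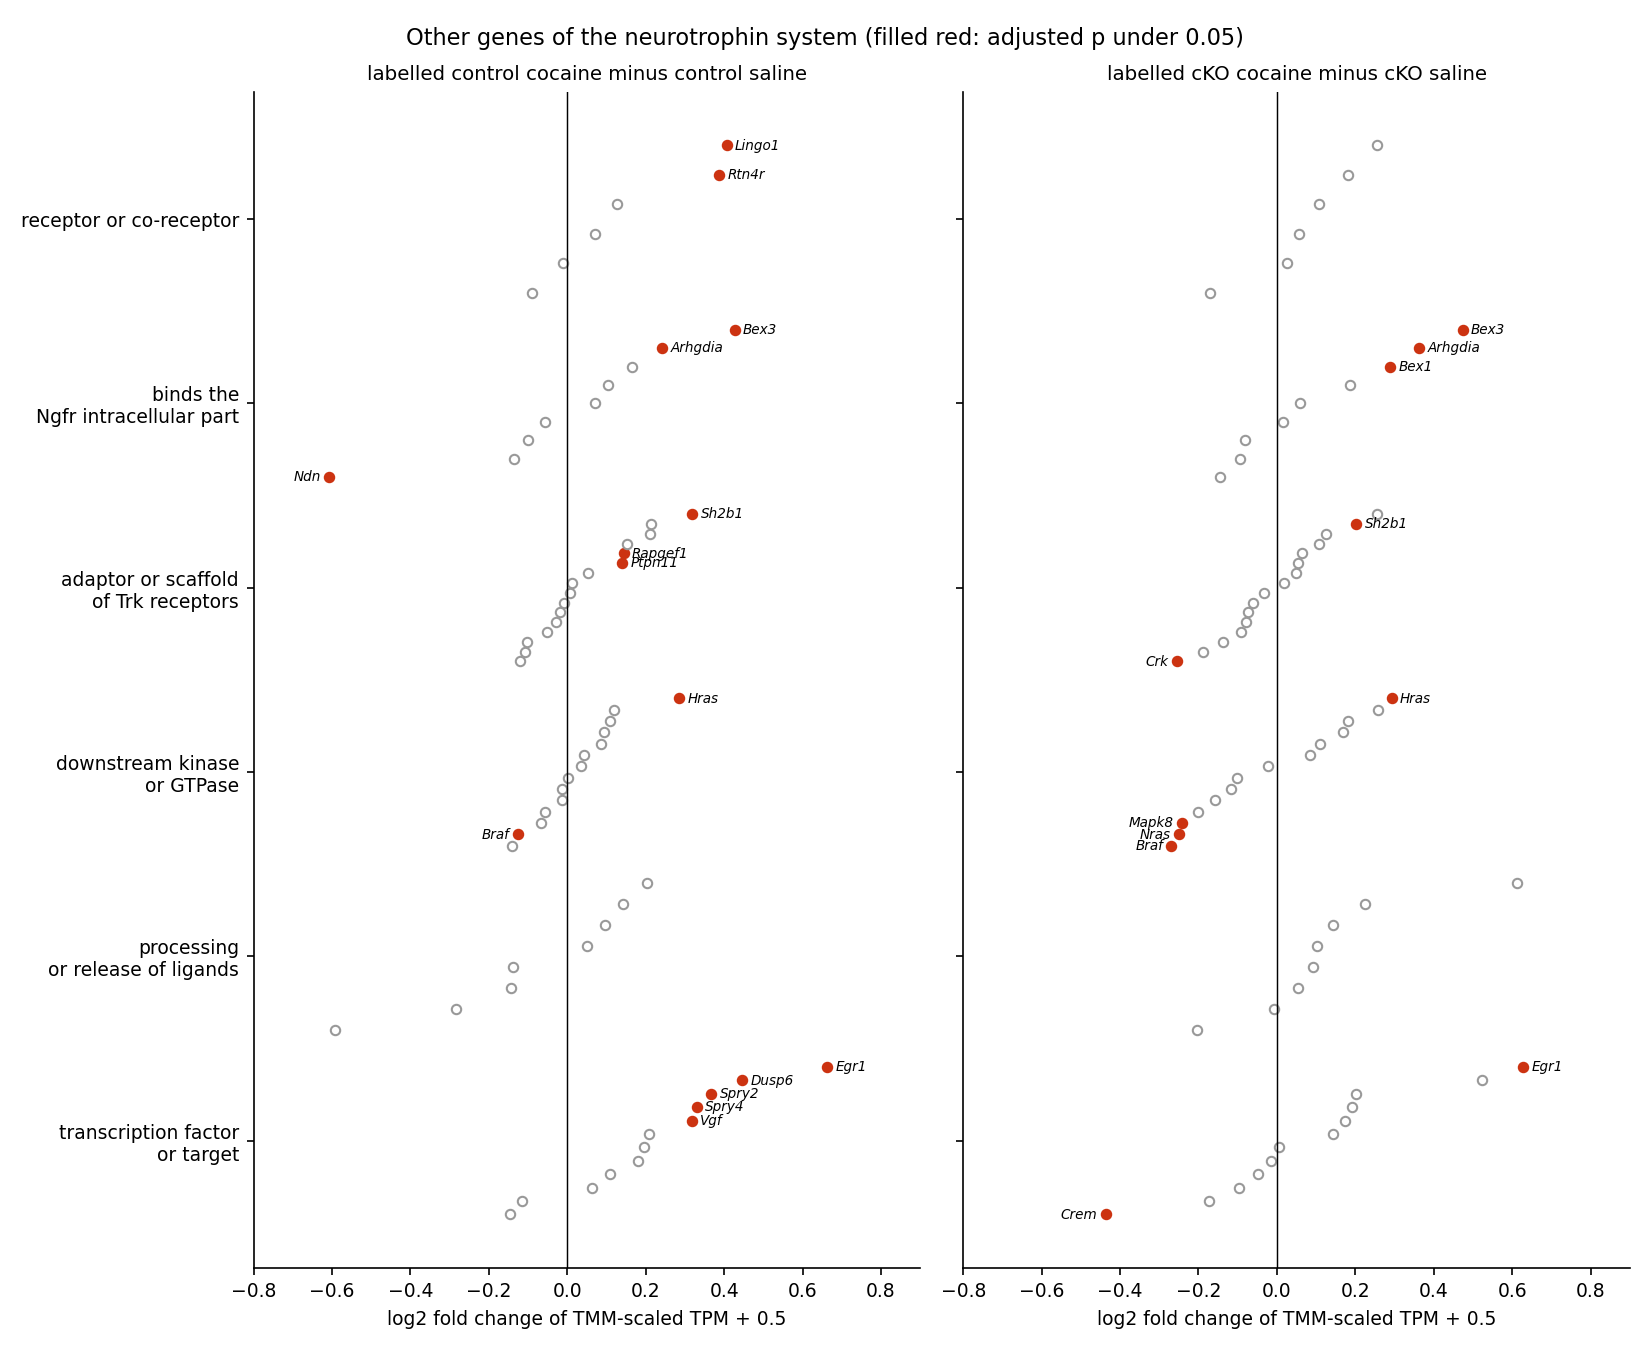
Log2 fold changes of scaled TPM plus 0.5 (horizontal axis) of the 65 tested genes of the wider neurotrophin system, in rows by role, for cocaine against saline under each genotype label. Filled red points with names passed an adjusted p of 0.05. There are 15 such genes on the left, 13 of them to the right of 0, and 11 on the right, 5 of them to the left of 0.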

How the data were processed

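Ribodepleted, directional RNA-seq libraries were sequenced with paired 100 bp reads. The authors mapped reads to GRCm38.p4/mm10 with STAR 2.5.3a, quantified transcripts with Salmon and derived gene TPM with tximport. The deposited TPM tables list 25080 genes per library, summing to 312659 to 377401. Per the labels, libraries were sequenced to a minimum of 20000000 reads. Read counts were not used here, so the actual depth of each library, and the reads behind a TPM value, are not known. In 2 tables the deposited TPM values are written with a comma as the decimal mark and were converted. Of 15 samples, 1 (cKO cocaine replicate 3) was not analysed here. Groups come from sample titles. The labels call the samples independent without naming animals, so p-values measure the spread between these samples, which may be partly technical.

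TPM were scaled by TMM (30% and 5% trimming, unweighted), log2-transformed with a pseudocount of 0.5, filtered (at least 1 TPM in 3 libraries) and fitted across all 13471 genes with limma 3.58.1 (R 4.3.3), all groups together, with an intensity trend and Benjamini-Hochberg adjustment. A call is an adjusted p under 0.05. Intervals are 95%. On simulated data for control cocaine against control saline (13471 genes), 195 of 200 genes changed by 1 log2 unit were called, and 14 others. That step is larger than every difference given here for a member, so this share does not apply to differences of their size. Ngfr and Ntf3, below the filter, were tested by two-sided exact permutation (scipy 1.17.1). Named genes are the members, Maged1, those of the 68 system genes that passed a test, and per member the 3 genes of highest Pearson r. Ntf5 and the tested marker genes Mbp and Mobp were named after their values were seen. Marker lists covered 10 cell types. The members and lists were chosen with earlier results of these data known. Some genes of these lists are not reported here and are in none of the counts by list.

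Replicate numbers are shared between groups but do not pair libraries: deviations from group means correlated at a mean r of -0.014 over 18 same-numbered pairs, and 0.0046 over 54 others. Alternatives were other scalings, pseudocounts of 0.1 and 1, other filters (none, or a mean of 5 TPM), only the compared groups, no trend, the replicate block, genotype from the tag, libraries with agreeing labels, each library left out, and a fold minimum of 0.5 (log2). Coordinates are GENCODE M21 genes (GRCm38). Antisense models overlap Ntrk2, Ntrk3, Sort1 and Bdnf there and are not listed in the tables under the same symbols; whether quantification used strand is not given in the sources used here. Start windows come from RefSeq (GRCm38.p6), which held Bdnf, Ntf3, Ngfr and Ntrk2.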

Additional observations from a re-analysis of the deposited data

Results flagged for a closer look

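The effect of cocaine differed between the genotype labels, by the interaction term of the limma fit, for Maged1 (log2 difference 2.26, adjusted p = 6.76e-05). For Maged1, the deleted gene, the cocaine libraries go against their labels, and the interaction carries that reversal. Among 21 groups of 4 libraries examined for the 6 members and Maged1, 0 held a library whose gap to the others passed Dixon's 95% limit, although chance passes about 1 in 20 groups.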

How the results depend on the processing

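The single-gene values kept their direction under 1693 of 1741 alternatives and reversed under 48, of which 19 came from leaving the TPM as deposited. Under 1522 they kept both their direction and their side of the threshold. Some alternatives cannot change a direction, such as the fold minimum, no trend, or leaving out a library outside the comparison, so the first count overstates stability. With TPM as deposited the whole distribution shifts by about -0.34, and the counts of members past the threshold became 2 for labelled control cocaine against control saline (Ntrk2 at -0.39 and Ntrk3 at -0.50), 2 for labelled cKO cocaine against cKO saline (Ntrk2 and Sort1) and 3 over both genotypes. The system counts became 46, 41 and 54, with 0 between the saline groups and 0 for the interaction. The share of all genes past the threshold is not given for this setting or the alternatives below. These counts are therefore no result about the list. In that setting the labelled control cocaine against control saline values reversed to -0.14 (Arhgdia), -0.053 (Bdnf), -0.088 (Hras), -0.24 (Ptpn11), -0.225 (Rapgef1), -0.053 (Sh2b1), -0.13 (Sort1), -0.013 (Spry4) and -0.062 (Vgf). Those of labelled cKO cocaine against cKO saline reversed to -0.018 (Arhgdia), -0.090 (Bex1), -0.081 (Hras), -0.26 (Ntrk2) and -0.17 (Sh2b1), and those over both genotypes to -0.26 (Bdnf), -0.33 (Maged1), -0.18 (Ngfr), -0.33 (Ntrk2) and -0.34 (Sort1).

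Quantile normalization gave 1 system gene in the interaction and 1 member for labelled cKO cocaine against cKO saline (Sort1, adjusted p = 0.0409), and reversed Maged1 (-0.031), Ntrk2 (-0.022) and Sort1 (-0.016) over both genotypes and Ngfr (0.031) for labelled control cocaine against control saline. With genotype from the tag the first comparison had 0 members and 9 system genes, and the saline comparison had 0 system genes. Values that reversed there were Bex1 (0.010), Ntrk3 (-0.0090) and Ngfr (-0.24) between saline groups, Ntrk2 (0.013) under the control label and Ntrk3 (0.035) under the cKO label. With agreeing labels only, the system counts were 6, 5, 0, 0 and 11 (control label, cKO label, saline groups, interaction, both genotypes), with 0 members in the first, and Bdnf over both genotypes (-0.026) and Ngfr between saline groups (-0.10) reversed. A fold minimum of 0.5 left 0 members and 2, 1, 0, 0 and 1 system genes. A mean of at least 5 TPM gave no value for Bdnf. A pseudocount of 0.1 reversed Ngfr over both genotypes (-0.0012).

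The replicate block, which the numbers do not justify as a pairing, left the Sort1 call in place (0.25, adjusted p = 0.0236) and gave 0 system genes between the saline groups and 7 for labelled cKO cocaine against cKO saline. It changed no other count by over 1.5 times. The fit of only the compared groups was not made for the interaction or over both genotypes, which use all groups.

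With each library left out, the count of members was 1 throughout for labelled control cocaine against control saline and ran from 0 to 1 for the interaction. System counts ran from 4 to 13 for labelled cKO cocaine against cKO saline (4 without labelled cKO cocaine replicate 2), 0 to 1 between saline groups, 0 to 2 for the interaction (2 without labelled control cocaine replicate 1, 1 without replicate 2) and 9 to 26 over both genotypes (9 without labelled cKO cocaine replicate 2). Small differences crossed 0: Ntrk2 (-0.041 to 0.021) and Ngfr (-0.16 to 0.037) under the control label, Bdnf (-0.26 to 0.0096) and Ntrk3 (-0.15 to 0.13) under the cKO label, Ntrk3 between saline groups (-0.0047 to 0.14) and in the interaction (-0.011 to 0.27), and Sort1 (-0.013 to 0.083), Ngfr (-0.067 to 0.10) and Ntf3 (-0.12 to 0.078) over both genotypes. The cause of these changes was not tested. TPM tables carry no read depth, so counting error could not be set beside the low values of Ngfr and Ntf3.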

Other observations

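The genes most like Bdnf over the 14 libraries were Kcng2, Zfp1 and Sumo2 (r = 0.857, 0.812 and 0.799).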
